A study of Mus musculus with 6 samples.

Results

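The genes described here are 10 markers of tubule injury, Havcr1, Lcn2, Spp1, Krt8, Krt18, Krt19, Krt20, Vcam1, Cd44 and Sprr2f, a given list of names read by symbol from a kidney count table of 34714 genes. All 10 were in the table and all 10 passed the filter on low counts, which kept 18927 genes for testing. The samples were whole kidneys of male C57BL/6J mice (genotype label WT, 3 libraries) and of male miR-92b-/- mice (genotype label miR-92b knockout, 3 libraries). The knockout is the bought line C57BL/6JGpt- Mir-92bem22Cd549/Gpt, a global knockout. The table has no row for the deleted miRNA, so the deletion was not checked in it. Both groups were operated on at 8 weeks of age by unilateral ureteral obstruction, in which the left ureter is tied off, and kidneys were taken 10 days later. The treatment label and the column names give all 6 kidneys as obstructed, although the protocol text calls ligated kidneys nonfibrotic controls, and kidneys from sham surgery are not analysed here. The values therefore compare genotypes within injured kidneys and do not measure the injury response itself.

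A blocked ureter raises pressure in the nephron, and the tubule cells lose their transport functions and take on an injured state. Damaged proximal tubule cells put the membrane receptor KIM-1, the product of Havcr1, on their surface, and cells that fail to repair carry Vcam1. Distal tubule and collecting duct cells secrete the iron-carrier binding protein NGAL, the product of Lcn2. Osteopontin, from Spp1, is secreted by tubule cells of many segments, and simple-epithelium keratins rise as cells are stressed or flatten. None of these genes is private to the injured tubule: neutrophils hold NGAL, macrophages carry CD44 and osteopontin, activated endothelium displays VCAM-1, and the urothelium that lines the renal pelvis makes keratins and Sprr proteins. In whole-kidney RNA, fewer cells of a type and less RNA per cell cannot be told apart.

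The deleted gene, Mir92b, lies on chromosome 3 at 89227116 to 89227198 (GRCm38.p6, minus strand), and its 3p product is shown with 2 of the miRNAs that share its seed. RefSeq (GRCm38.p6) gives these mature sequences, with the seed, bases 2 to 8, in capitals.
mmu-miR-92b-3p: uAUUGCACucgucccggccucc
mmu-miR-92a-3p: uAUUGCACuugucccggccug
mmu-miR-25-3p: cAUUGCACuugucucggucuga
The 8-base target site for this seed, GTGCAATA, and its 7-base forms were in 0 of the 10 markers' longest 3′ UTRs (GENCODE M21). Over the 20204 genes of the table with a 3′ UTR, 2.37% held the 8-base site and 13.4% held at least 1 site of 7 or 8 bases. The one shorter match among the markers, of 6 bases, was in Cd44, at base 73 of its 3′ UTR of 2992 nt. It is shown with its flanks because it was the only match of 6 or more bases, on chromosome 2 at 102814055 to 102814060 (GRCm38, minus strand), with the 6 bases in capitals.
Cd44 site: accctccacagaTGCAATgtgctactgact

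The libraries held 38738204 to 51932509 counts. Levels are given in CPM, the depth-scaled count with TMM factors, and differences as log2 fold changes, knockout over wild type, with their SE from edgeR's quasi-likelihood fit. The listed markers of proximal tubule (20), loop and distal tubule (10), collecting duct (16) and podocytes (6) were all measured, as the labelled organ requires. Several lists differed between libraries. The immediate early gene Fos measured 63.5 to 377 CPM in the wild type and 13.3 to 17.9 CPM in the knockout. Summed markers of fibroblasts and smooth muscle ranged from 2000 to 4422 CPM in the wild type and from 2644 to 7745 CPM in the knockout. The part of these differences in the results below was not tested.

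No tubule injury marker passed the test for a difference between the genotypes. At an adjusted p under 0.05 (edgeR quasi-likelihood test, Benjamini-Hochberg over all 18927 genes), 0 of the 10 were called, against a background of 0% of all genes tested. At an unadjusted p under 0.05 it was again 0 of 10, where 4.38% of all genes were higher and 3.52% lower, and DESeq2 and limma-voom (with quality weights) called 0 of the 10 as well. With limma-voom, 2 of the 10 (Krt18 and Sprr2f) were lower at an unadjusted p under 0.05, where that fit had 6.72% of all genes lower and 7.32% higher. The log2 fold change was above 0 for 4 markers (Havcr1, Krt20, Vcam1 and Cd44) and below 0 for 6, with a median of -0.091, beside -0.018 over all genes tested. That median was 0.029 without wild-type replicate 3, 0.010 without knockout replicate 1 and 0.025 with the transcript length trend removed. The groups did not overlap for 1 marker, Krt8, which was lower in the knockout, where the background of non-overlap was 7.20% of genes lower and 8.95% higher. Adjusted p over the 10 ran from 0.640 for Krt18 to 0.977 for Spp1 (edgeR). These p-values miss the threshold and do not show that the genotypes are alike: the 95% intervals given below still hold sizeable differences for several markers. Whether each replicate is its own mouse is not stated, so the p-values measure only the spread between these libraries, which may be technical.

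**Figure D1:**
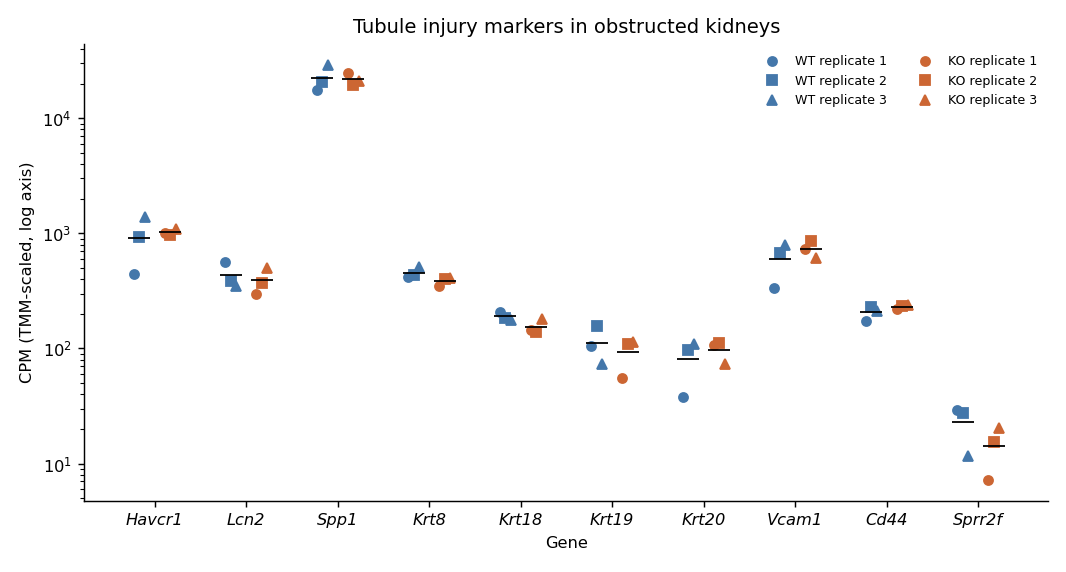
Level of each tubule injury marker in CPM (TMM-scaled, log axis) in the 3 wild-type (WT, blue) and 3 knockout (KO, orange) libraries; symbols mark the replicate and horizontal lines the group means. The groups overlap for every gene except Krt8, and wild-type replicate 1 lies well below the other libraries for Havcr1, Vcam1 and Krt20.

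Spp1 had the most counts of any gene in the table. Its product, osteopontin, is a secreted phosphoprotein that binds integrins and CD44. It took 1.92%, 2.12% and 2.64% of all counts in wild-type replicates 1, 2 and 3, and 2.46%, 1.96% and 2.08% in knockout replicates 1, 2 and 3. Both groups therefore spent about the same share of their reads on this gene, and the groups overlapped. The share averaged 2.23% ± 0.375 (SD, n = 3) in the wild type and 2.17% ± 0.265 in the knockout. In CPM the difference on the log2 scale was -0.036 ± 0.32 (SE), its 95% interval running from -0.78 to 0.71. A predicted gene, Gm42793, shares 9.05% of the 50-base windows of its transcript. Together the 10 markers took 2.53% ± 0.407 of counts in the wild type and 2.48% ± 0.247 in the knockout, and nearly all of that was Spp1. The other 9 markers summed to 0.301% ± 0.0410 in the wild type and 0.309% ± 0.0190 in the knockout.

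Havcr1 had the largest gap in spread between the groups, with a coefficient of variation of 51.5% in the wild type and 6.17% in the knockout. It measured 443, 922 and 1387 CPM in wild-type replicates 1, 2 and 3 and 1015, 966 and 1092 CPM in the knockout replicates. The wild type thus held both the lowest and the highest library, and the 3 knockout libraries lay between them. Within the wild type the range was 3.14-fold, and within the knockout it was 1.13-fold. Its share of all counts was 0.0898% ± 0.0388 (SD, n = 3) in the wild type and 0.101% ± 0.00618 in the knockout. The knockout over wild-type log2 fold change was 0.16 ± 0.37 (SE; edgeR adjusted p = 0.897), with an interval from 0.615-fold to 2.03-fold. Timd2 and Gm4926 share 5.30% of its 50-base windows. The direction rested on single libraries: it was -0.17 without wild-type replicate 1 and 0.59 without wild-type replicate 3.

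Vcam1, an adhesion molecule that binds leukocyte integrins and marks proximal tubule cells that have not recovered, was at 337, 671 and 789 CPM in the wild type and 725, 863 and 613 CPM in the knockout. Here too wild-type replicate 1 was the low library, and the other 5 overlapped. The share of counts averaged 0.0592% ± 0.0193 (SD, n = 3) in the wild type and 0.0727% ± 0.0126 in the knockout. The log2 fold change of 0.29 ± 0.32 (SE; edgeR adjusted p = 0.772) was 0.0078 without wild-type replicate 1. Cd44, the hyaluronan receptor that injured tubule cells, leukocytes and fibroblasts carry, was one of the steadiest markers. It measured 172, 231 and 213 CPM in the wild type and 219, 232 and 238 CPM in the knockout, so that only wild-type replicate 1 lay clearly apart. Its difference was 0.16 ± 0.16 (SE) on the log2 scale, the interval running from 0.867-fold to 1.44-fold, and it was 0.047 without wild-type replicate 1.

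Macrophage and monocyte markers were read beside these genes. All 18 of that list were measured, 14 of them above 0, and their median on the log2 scale was 0.17, or 0.052 without knockout replicate 3. Their summed level was 1866 to 2003 CPM in the wild type and 2214 to 2546 CPM in the knockout, without overlap, and none of the 18 was at 0 in all libraries. At an unadjusted p under 0.05, 3 were higher, beside 4.38% of all genes, and 0 passed the adjusted threshold (edgeR). Gene by gene, 5 were higher and 0 lower without overlap, beside 8.95% and 7.20% of all genes. Lyz2, the macrophage lysozyme, had values of 567 to 658 CPM in the wild type and 785 to 1033 CPM in the knockout. Summed endothelial markers overlapped, at 588 to 855 CPM and 559 to 1089 CPM. The part of these cells in the values of Spp1, Cd44 and Vcam1 was not tested.

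Lcn2, whose secreted product binds bacterial iron carriers and is used as a urine marker of kidney injury, had another order of libraries. It measured 562, 382 and 350 CPM in the wild type and 298, 372 and 500 CPM in the knockout. Wild-type replicate 1, the lowest library for Havcr1, was the highest for Lcn2. The group means were 431 ± 114 CPM (SD, n = 3) and 390 ± 102 CPM, and the groups overlapped throughout. On the log2 scale it differed by -0.15 ± 0.26 (SE; edgeR adjusted p = 0.859), with an interval from 0.595-fold to 1.37-fold. It was 0.090 without wild-type replicate 1 and -0.37 without knockout replicate 3. Counted within each library, Havcr1 reads per Lcn2 read were 0.787, 2.42 and 3.96 in the wild type and 3.41, 2.60 and 2.18 in the knockout, a 5.03-fold range over the 6 libraries, whereas the group means of 2.39 and 2.73 were close.

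Neutrophil markers varied between libraries beside Lcn2. Of 12 listed genes, 7 passed the filter, and their summed level was 54.6, 34.9 and 22.8 CPM in wild-type replicates 1, 2 and 3 and 23.5, 28.5 and 46.9 CPM in the knockout replicates. Wild-type replicate 1 and knockout replicate 3 headed both this sum and the level of Lcn2. The granule and surface genes Ly6g, Camp, Ngp, Elane and Mpo, which define neutrophils and their precursors, stayed between 0 and 25 counts in each library and did not pass the filter. The largest single part in every library was Csf3r, the receptor for G-CSF, singled out after its values were seen, at 14.7 to 29.9 CPM. In knockout replicates 1, 2 and 3 Csf3r was at 18.2, 20.2 and 19.6 CPM. Ltf, also named after its values were seen, was at 0.707, 2.30 and 16.9 CPM in them. S100a8 (1.94, 1.87 and 3.06 CPM) and S100a9 (1.57, 1.98 and 3.67 CPM) were also highest in knockout replicate 3 of these. The part of neutrophils in the level of Lcn2 was not tested.

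The 4 keratin genes build the intermediate filaments of simple epithelia, in which a type II keratin (Krt8) pairs with a type I keratin (Krt18, Krt19 or Krt20). Krt8 and Krt18 lie 23.9 kb apart on chromosome 15, Krt8 at 101996711 to 102004342 on the minus strand and Krt18 at 102028216 to 102032026 on the plus strand (GRCm38.p6). Krt19 and Krt20 lie 0.703 Mb apart on chromosome 11. Summed, the 4 took 0.0843% ± 0.00564 (SD, n = 3) of counts in the wild type, against 0.0724% ± 0.00704 in the knockout.

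Krt8 was at 415, 435 and 512 CPM in the wild type and 348, 398 and 412 CPM in the knockout. Every knockout library lay below every wild-type library, but the nearest pair, 412 and 415 CPM, were almost level. On the log2 scale Krt8 differed by -0.23 ± 0.17 (SE; edgeR adjusted p = 0.677), lower in 3 of 3 knockout libraries, with an interval from 0.650-fold to 1.11-fold. It ranged from -0.29 without wild-type replicate 1 to -0.13 without wild-type replicate 3. An exact two-sided permutation test gave p = 0.1, the smallest that 3 against 3 allows. The groups overlapped when no filter was applied before scaling and when the transcript length trend was removed. Of its transcript, 26.9% of 50-base windows also occur in the pseudogene Krt8-ps, so some of its reads could have been assigned elsewhere.

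Krt18, the partner of Krt8, measured 209, 184 and 176 CPM in the wild type and 143, 139 and 181 CPM in the knockout. Only knockout replicate 3 reached the wild-type range. The log2 difference was -0.29 ± 0.16 (SE), and its adjusted p of 0.640 (edgeR) was the smallest of the 10 markers. It ranged from -0.42 without knockout replicate 3 to -0.22 without wild-type replicate 1. Krt8 reads per Krt18 read were 1.99, 2.37 and 2.90 in the wild type and 2.43, 2.85 and 2.27 in the knockout. This ratio varied as much within a genotype as between them (exact two-sided permutation p = 0.8).

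Krt19, a keratin of ducts and urothelium, was at 105, 158 and 72.8 CPM in the wild type and 55.3, 109 and 114 CPM in the knockout. Wild-type replicate 3 and knockout replicate 1 were the low libraries, 1 in each group. The log2 difference was -0.26 ± 0.35 (SE), and it was 0.071 without wild-type replicate 2. Krt20, which is scarce in healthy tubules and appears in injured ones, measured 37.7, 96.3 and 109 CPM in the wild type and 106, 111 and 72.6 CPM in the knockout. Wild-type replicate 1 was again far below the rest. Its log2 fold change was 0.25 ± 0.37 (SE; edgeR adjusted p = 0.830), and -0.091 without that library.

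Among 21 other keratins and desmosome or filament-linking genes, 19 were tested, 9 above and 10 below 0, with a median of -0.19. This median was above 0 without wild-type replicate 1 (0.086), wild-type replicate 2 (0.16) or knockout replicate 1 (0.13). At an unadjusted p under 0.05 (edgeR), 1 was higher and 2 were lower, beside 4.38% and 3.52% of all genes. At the adjusted threshold it was 0. Krt7, the type II keratin of ducts, was at 278, 308 and 272 CPM in the wild type and 205, 194 and 216 CPM in the knockout, without overlap. Its log2 fold change was -0.48 ± 0.14 (SE; edgeR adjusted p = 0.627). Krt15, a keratin of basal epithelium, had a log2 fold change of -1.16 ± 0.35 (SE), and Jup, the junction protein plakoglobin, one of 0.40 ± 0.17. Collecting duct markers lay below 0 for 15 of 16 genes, with a median of -0.29, or -0.18 without knockout replicate 3 and -0.48 without knockout replicate 1. Of the 16, 4 were lower with no overlap between the groups, beside 7.20% of all genes, and 0 passed the adjusted threshold (edgeR). At an unadjusted p under 0.05 (edgeR), 3 were lower, beside 3.52% of all genes. The 3 were Fxyd4, a regulator of the sodium pump, at -0.76 ± 0.15 (SE), the transcription factor Elf5, at -1.49 ± 0.42, and the water channel Aqp4, at -1.17 ± 0.42 (edgeR adjusted p = 0.627 for each). Fxyd4 was at 36.6, 33.1 and 33.0 CPM in the wild type and 22.3, 20.7 and 17.4 CPM in the knockout. The summed level of the collecting duct markers was 913 to 1288 CPM in the wild type and 783 to 1276 CPM in the knockout, and their part in the keratin values was not tested.

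Sprr2f codes for a small proline-rich protein that is cross-linked into the envelope of stressed and squamous epithelial cells. It lies on chromosome 3 at 92365187 to 92366442 (GRCm38.p6, plus strand), 3.14 Mb from Mir92b. It had the fewest counts and the largest fitted difference of the 10 markers, at 29.1, 27.7 and 11.6 CPM in the wild type and 7.18, 15.3 and 20.2 CPM in the knockout. Wild-type replicate 3 lay among the knockout libraries, and the 6 libraries spanned a 4.05-fold range. Knockout over wild type, the log2 fold change was -0.68 ± 0.44 (SE; edgeR adjusted p = 0.661; exact two-sided permutation p = 0.3), with an interval from 0.305-fold to 1.27-fold. It was -1.02 without knockout replicate 3 and -0.36 without knockout replicate 1, and -0.38 with the transcript length trend removed.

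Sprr2 genes are a cluster of close copies, so it was checked whether Sprr2f could share reads with the others. Of the 50-base windows of the Sprr2f transcript, 0.714% were found in another gene, Sprr2e, which had 30 counts in all. The aligned transcripts of the other Sprr2 genes were 75.3% to 83.0% identical to Sprr2f. Of 10 Sprr2 genes in the table, Sprr2a1, Sprr2a2 and Sprr2a3 held 46.1%, 29.2% and 10.4% of the family's counts and Sprr2f held 13.5%. Sequence shared among Sprr2a1, Sprr2a2 and Sprr2a3 was not checked, so their values may not be separate measurements. Sprr2a1 was at 74.4, 128 and 47.7 CPM in the wild type and 23.8, 47.8 and 54.0 CPM in the knockout. Over the Sprr family, 6 genes were tested, of which 5 were below 0 and 1 above, with a median of -0.76, or -0.42 without wild-type replicate 2 and -0.50 without knockout replicate 1. One of them, Sprr2a1, was lower at an unadjusted p under 0.05, with a log2 fold change of -0.99 ± 0.41 (SE; edgeR adjusted p = 0.627).

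The promoter of Sprr2f is shown because it was the only marker with an AP-1 match upstream of a start site. Fos, a subunit of AP-1, was at 63.5, 84.4 and 377 CPM in wild-type replicates 1, 2 and 3. In knockout replicates 1, 2 and 3 it was at 17.9, 16.1 and 13.3 CPM, without overlap (edgeR adjusted p = 0.627). Over all genes tested, 7.20% were lower without overlap. Within each genotype, the library with the highest Fos had the lowest Sprr2f. Sprr2f was at 11.6 CPM in wild-type replicate 3 and 7.18 CPM in knockout replicate 1. The part of AP-1 in the Sprr2f values was not tested. Promoters of 8 of the 10 markers were in the RefSeq table, each 250 bases before to 50 after a start. They were searched on both strands for the AP-1 motif TGANTCA, the STAT motif TTCNNNGAA and the NF-kB consensus, which 7.81%, 8.30% and 4.51% of all 32851 promoters held. The only other match, in Havcr1, began 11 bases after a start. Sprr2f had TGAGTCA at bases -197 to -191 from its start, in capitals in this sequence (RefSeq, GRCm38.p6, chr3:92364937-92365236, plus strand).
Sprr2f promoter: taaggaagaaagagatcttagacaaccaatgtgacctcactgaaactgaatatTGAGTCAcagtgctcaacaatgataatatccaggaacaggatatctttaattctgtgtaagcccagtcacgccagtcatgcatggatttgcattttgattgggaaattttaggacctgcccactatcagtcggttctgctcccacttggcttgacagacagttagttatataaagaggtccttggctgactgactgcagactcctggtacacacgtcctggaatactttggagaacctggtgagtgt

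Urothelial markers moved from library to library beside Krt19 and Sprr2f. All 13 were measured and none was at 0 in all libraries. Their summed level was 213, 376 and 83.6 CPM in wild-type replicates 1, 2 and 3 and 93.1, 213 and 232 CPM in the knockout replicates. The low libraries, wild-type replicate 3 and knockout replicate 1, were also the lowest for Krt19 and Sprr2f. The largest single part of the sum in every library was the keratin Krt5, at 20.1 to 133 CPM. The uroplakin Upk1b, which coats the umbrella cells, was at 8.47 CPM in wild-type replicate 3 and 58.2 CPM in wild-type replicate 2. In wild-type replicate 1, where Sprr2f was highest, Upk1b was at 16.7 CPM. Both genes were picked after their values were seen. Gsdmc2 had another order, at 16.4 CPM in knockout replicate 1 and 10.3 and 10.2 CPM in knockout replicates 2 and 3. The list's median was -0.018 on the log2 scale, with 6 genes above and 7 below 0, and it was 0.66 without wild-type replicate 2 and -0.47 without knockout replicate 3. The part of urothelium in these values was not tested.

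**Figure D2:**
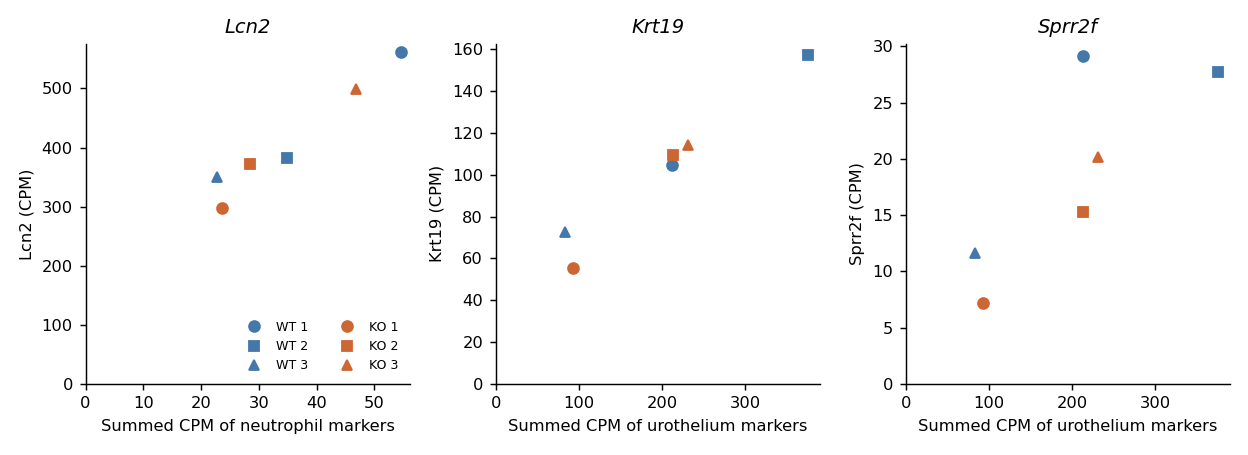
Level in CPM of Lcn2 against the summed CPM of 7 neutrophil markers, and of Krt19 and Sprr2f against the summed CPM of 13 urothelium markers, in each of the 6 libraries (WT blue, KO orange, symbols for replicates). Wild-type replicate 3 and knockout replicate 1 are at the lower left of all 3 panels.

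The markers did not share one order of libraries. Wild-type replicate 1 was the lowest of the 6 libraries for 5 markers (Havcr1, Spp1, Krt20, Vcam1 and Cd44) and the highest for 3 (Lcn2, Krt18 and Sprr2f). Knockout replicate 1 was the lowest for 4 (Lcn2, Krt8, Krt19 and Sprr2f) and the highest for 0. On the log2 scale, wild-type replicate 1 stood at -1.15 from the mean of Krt20, -1.06 from that of Havcr1 and -0.92 from that of Vcam1, and at 0.81 above that of Sprr2f. The within-group coefficient of variation was 44.5% for Sprr2f, 36.8% for Krt19, 36.7% for Havcr1 and 36.6% for Krt20. It was 10.1% for Krt8, 10.9% for Cd44 and 12.4% for Krt18, beside a median of 15.2% over the 12906 genes with at least 5 CPM.

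**Figure D3:**
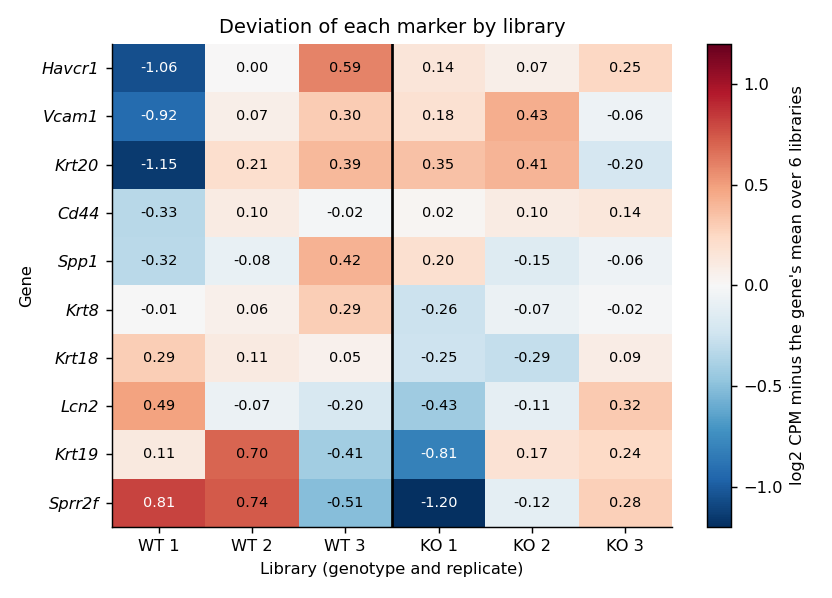
Deviation of each marker's log2 CPM from its own mean over the 6 libraries (red above, blue below), by library, with a line between wild type (WT) and knockout (KO). Havcr1, Vcam1 and Krt20 are lowest in wild-type replicate 1, at -1.06, -0.92 and -1.15, where Lcn2 and Sprr2f are highest.

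Of the 45 pairs of markers, the closest was Krt20 and Vcam1. Over the 6 libraries their log2 CPM correlated at Pearson r = 0.983 (exact permutation p = 0.00139, 0.0625 adjusted over the 45 pairs) and Spearman rho = 1 (exact permutation p = 0.00278, adjusted 0.125). The r was 0.900 without the 2 libraries farthest from the median of Krt20, and 0.985 for deviations from the group means. Havcr1 and Vcam1 correlated at r = 0.886 (exact permutation p = 0.0681, adjusted 0.337) and rho = 0.429 (exact permutation p = 0.419, adjusted 0.746). Their r was -0.467 without the 2 farthest libraries, so the relation rested on those. Lcn2 and Krt20 ran against each other at r = -0.881 (exact permutation p = 0.0139, adjusted 0.313) and rho = -0.771 (exact permutation p = 0.103, adjusted 0.438), with r = -0.291 without the 2 farthest. None of the 45 pairs passed the adjusted threshold of 0.05.

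Genes with the pattern most like a marker's were sought among 12906 genes with at least 5 CPM, by the root mean square difference of mean-centred log2 CPM over the 6 libraries. Nearest to Krt20 were Slc6a20a, an amino acid transporter (0.063), Umad1 (0.073) and Tnfaip3, an inhibitor of NF-kB signalling (0.074). Nearest to Havcr1 were Spcs1, a signal peptidase subunit (0.062), Odc1, the enzyme that starts polyamine synthesis (0.095), and Prps1, an enzyme of nucleotide synthesis (0.098). Nearest to Lcn2 were Grasp, Hid1 and Ptges3l (0.062, 0.069 and 0.070). Sprr2f had no equally close neighbour: the mucin Muc4 (0.257), Vsig2 (0.269) and the annexin Anxa8 (0.272) came first. Nearest to Krt19 were Olfr1033 (0.213), Psca, a urothelial surface protein of the urothelium list (0.218), and Gabrp (0.232).

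Per kilobase of the longest coding transcript, the order of levels differed little between the genotypes. Spp1 stood first, at 14875 ± 4036 CPM per kb (SD, n = 3) in the wild type and 14511 ± 1844 in the knockout. Lcn2 and Havcr1 followed, at 471 ± 125 and 452 ± 233 in the wild type and 426 ± 112 and 505 ± 31.1 in the knockout, and their order changed within the spread. Krt8 (232 ± 26.1 and 197 ± 17.2 CPM per kb) and Vcam1 (173 ± 67.6 and 211 ± 36.2) also exchanged places within their spread, followed by Krt18 (132 ± 11.9 and 108 ± 16.1). Krt19 (70.9 ± 27.1 and 59.1 ± 20.8) and Krt20 (42.1 ± 19.8 and 50.1 ± 10.8) did not differ beyond their spread. Neither did Krt20, Cd44 (36.6 ± 5.40 CPM per kb) and Sprr2f (37.5 ± 16.0) in the wild type. In the knockout Cd44 was at 40.9 ± 1.71 and Sprr2f was lowest, at 23.3 ± 10.8.

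**Figure D4:**
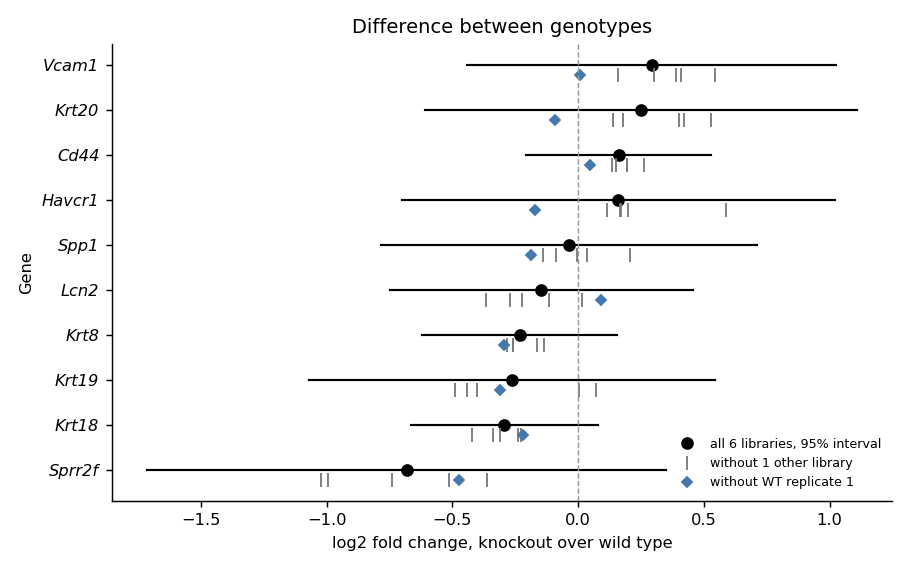
Difference between genotypes (log2 knockout over wild type) for each tubule injury marker from edgeR with its 95% interval (black), and the values with 1 library left out (grey ticks, with wild-type replicate 1 as blue diamonds). Every interval spans 0, and Havcr1 and Krt20 are below 0 without wild-type replicate 1.

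The genes that bind, cut or supply ligands for these markers were read gene by gene from a list of 24, of which 23 were measured. The list as a whole was not tested. Of these 18 were above and 5 below 0, with a median of 0.27, beside -0.018 over all genes, and of 0.15 without wild-type replicate 1. At an unadjusted p under 0.05 (edgeR), 3 were higher (Itgb5, Itga9 and, outside the naming rule, Itgb3), beside 4.38% of all genes. At that p 1 was lower (Nr4a1, a nuclear receptor and immediate early gene), beside 3.52% of all genes. None passed the adjusted threshold. Itgb5, an integrin subunit that pairs with the αv chain to bind osteopontin and vitronectin, was at 192, 201 and 198 CPM in the wild type and 271, 319 and 304 CPM in the knockout. The groups did not overlap, and the log2 difference was 0.60 ± 0.14 (SE; edgeR adjusted p = 0.627). Of the 23 genes, 3 were higher and 0 lower without overlap, beside 8.95% and 7.20% of all genes. Itga9, the chain of another osteopontin receptor, stood at 0.73 ± 0.24. The following genes were named for their roles after their values were seen. Itga4, which pairs with Itgb1 as the receptor for VCAM-1, was at 0.26 ± 0.27, and Slc22a17, a receptor for NGAL, was at -0.49 ± 0.24. Lrp2, also on the list, was at -0.066 ± 0.42. Adam10 and Adam17, proteases that shed membrane proteins such as KIM-1 and CD44, were at 0.28 ± 0.17 and 0.24 ± 0.11.

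Inflammatory signals that act through NF-kB and STAT3 are known inducers of Lcn2, Vcam1 and Cd44. All 24 genes of that list were tested, 11 above and 13 below 0, with a median of -0.024, which was 0.079 without wild-type replicate 3 and 0.030 without knockout replicate 1. At an unadjusted p under 0.05 (edgeR), 2 were higher and 4 lower, beside 4.38% and 3.52% of all genes. At the adjusted threshold it was 0. Of the 24 genes, 4 were higher and 3 lower without overlap between the groups, beside 8.95% and 7.20% of all genes. Il6st, the shared receptor chain of the IL-6 family, and Tnfrsf1b, a TNF receptor, were higher in 3 of 3 knockout libraries, at 0.67 ± 0.19 and 0.64 ± 0.15. Nfkbiz, a nuclear regulator of NF-kB that Lcn2 induction depends on, was lower in 3 of 3, at -0.48 ± 0.14 (edgeR adjusted p = 0.627 for all 3 genes). The wild-type values of Nfkbiz were 237, 197 and 223 CPM, and the knockout values were 163, 149 and 158 CPM.

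Other genes tied to tubule injury and repair summed to 8499 to 11319 CPM in the wild type and 12105 to 12500 CPM in the knockout, without overlap. That rested on 1 gene, Clu: without it, an alternative chosen after seeing the data, the sums were 6447 to 8995 CPM and 8521 to 9466 CPM and overlapped. Of 30 listed, 29 were measured, 18 above and 11 below 0, with a median of 0.17, and that median was -0.0096 without wild-type replicate 1 and 0.078 without knockout replicate 3. None passed the adjusted threshold (edgeR). At an unadjusted p under 0.05 (edgeR), 1 was higher and 3 lower, beside 4.38% and 3.52% of all genes. The higher one was Clu, clusterin, a secreted chaperone of injured tubules, outside the naming rule and named after its values were seen. It was at 2052, 2501 and 2324 CPM in the wild type and 3035, 3046 and 3689 CPM in the knockout, without overlap, a log2 fold change of 0.51 ± 0.22 (SE). Of the 29 genes, 3 were higher and 2 lower without overlap, beside 8.95% and 7.20% of all genes. Cryab, a small heat shock protein, was at 195, 188 and 288 CPM in the wild type and 164, 143 and 118 CPM in the knockout, at -0.66 ± 0.21. Gdf15, a stress-induced cytokine, and Ccl2, which draws monocytes, were at -1.45 ± 0.51 and -0.86 ± 0.35 (edgeR adjusted p = 0.627 for these 3). For both, wild-type replicate 3 was the highest library, at 69.1 and 89.4 CPM, and it also had the highest Fos. Proximal tubule markers were below 0 for 18 of 20 genes, with a median of -0.34, and summed to 8670 to 23429 CPM in the wild type and 4303 to 13081 CPM in the knockout. That median was 0.16 without wild-type replicate 3, the library with the highest Havcr1, and -0.013 without knockout replicate 3, and the part of proximal tubule RNA in the Havcr1 values was not tested.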

How the data were processed

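The deposited table holds raw counts, whole numbers by gene symbol, with a column for each of the 6 libraries. Per the labels' protocols, libraries were made from total RNA with an mRNA kit, and the submitters' processing notes name the builds GRCm38 and mm10. Aligner, counter and strand setting: not given in the sources used here. Without them, overlapping or antisense genes may share counts. All 34714 symbols matched RefSeq genes of GRCm38.p6. Wild-type columns carry the library's description; knockout columns give its parts in another order.

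Genes were filtered with filterByExpr, scaled by TMM and compared with the quasi-likelihood test of edgeR 4.0.16 (robust fit, group as the only term) in R 4.3.3, adjusted by Benjamini-Hochberg over 18927 genes at 0.05. Standard errors are the log2 fold change over the root of F. Log2 CPM used a prior count of 2. DESeq2 1.42.0 (on the filtered genes) and limma 3.58.1 (voom with quality weights) were alternatives. Exact permutation tests used SciPy 1.17.1.

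The members and lists were chosen with earlier results of these data known. Genes named beyond the 10 were the 3 of each list with the smallest p and at least 1 CPM, the Sprr2 genes and the 3 nearest to each marker, unless stated otherwise. Ly6g, Camp, Ngp, Elane and Mpo were named because they failed the filter, which was known when they were chosen. Median log2 fold changes of the other lists, with genes above and below 0, were: lymphocytes (5 above and 5 below 0, median 0.050, from -0.26 to 0.26 with 1 library left out), loop and distal tubule (2 and 8, -0.11, or -0.72 without knockout replicate 1 and 0.22 without knockout replicate 3), podocytes (3 and 3, 0.036, or -0.050 without knockout replicate 3 and 0.10 without wild-type replicate 2), endothelium (11 and 1, 0.34, or 0.028 without knockout replicate 3), fibroblasts and smooth muscle (11 and 1, 0.76, or 0.032 with replicate 3 of both groups left out), neutrophils (2 and 5, -0.20, or 0.18 without wild-type replicate 1 and -0.48 without wild-type replicate 3) and handling or blood genes (3 and 7, -0.92, or -0.42 without wild-type replicate 3).

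Tested on simulated data for 18927 genes, the fit recovered 4.48% of genes changed 1.5-fold, 41.8% changed 2-fold and 89.4% changed 4-fold, with 8 calls among unchanged genes. No library was a copy of another: the chi-square per degree of freedom between libraries was 33.6 or more.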

Additional observations from a re-analysis of the deposited data

How the results depend on the processing

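None of the 10 markers was called under any of 17 refits (other scalings, filters and tests, the replicate block, the length trend removed, libraries left out). Of their 170 values, 159 kept their direction and 11 changed sign, in Spp1, Lcn2, Krt19, Havcr1 and Krt20. Spp1 was 0.083 with the length trend removed, 0.000303 with limma-voom and 0.23 once replicate 3 was dropped from both groups. With 1 library left out, Spp1 ranged from -0.19 to 0.20, Havcr1 from -0.17 to 0.59, Lcn2 from -0.37 to 0.090, Krt19 from -0.49 to 0.071 and Krt20 from -0.091 to 0.53. Krt8, Krt18, Vcam1, Cd44 and Sprr2f kept their direction under all 17. The difference in the summed share of the 10 markers ranged from -0.233 to 0.168 percentage points with 1 library left out.

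Over all genes, DESeq2 called 62, limma-voom 3, the fit with no filter 2 and the fit with replicate 3 of both groups left out 1, against 0 in the main comparison, and leaving out 1 library gave 0 to 1. The cause was not tested. With the replicate number as a block, 1 gene was called and no marker. The correlation of same-numbered libraries' deviations was -0.282, 0.179 and -0.288, and 1 of 3 numbers matched best with itself. With 3 libraries in each group, these values cannot show whether same-numbered libraries share a batch. Over all fits, the median of all genes lay farthest from 0 with upper-quartile factors, at -0.052, beside -0.018 in the main comparison. At this number of replicates most 1.5-fold changes would not be called.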
